A study of Mus musculus with 6 samples.

Results

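The kidney carries a large set of phase II conjugation enzymes, which attach a small polar group to drugs, steroids, bile pigments and products of oxidation so that they can be excreted. The genes described here are those with symbols of the Ugt, Gst and Sult families. They were chosen by name, with earlier results of these data known. For each, the brightest probe set, by its mean over the 6 arrays, was taken from those annotated to no other gene. This gave 46 genes of the 19937 named genes on the array, of which 11 are Ugt, 19 are Gst and 16 are Sult genes. Another 17 genes with such symbols share their probe sets with a relative and are described only through those shared probe sets.

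RNA of whole mouse kidney was measured on 1 Affymetrix array per sample, in 3 NICD1 samples and 3 control samples. NICD1 mice had the genotype Pax8rtTA TREICNotch1, in which the Pax8 promoter drives a tetracycline-dependent activator along the tubule epithelium and that activator switches on the intracellular, active part of Notch1. Controls were wild-type littermates whose genotype is given as normal. Sex, age, strain, the inducing agent and the length of induction are not given in the sources used here. Nothing in the labels says that each sample came from a separate mouse, so p-values measure the spread between these samples. Values are log2 expression on the authors' normalized scale, and every difference is NICD1 minus control.

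Notch1 itself read 10.29, 10.30 and 9.99 in NICD1 samples, against 6.65, 6.59 and 6.45 in controls (difference 3.63, SE 0.12, limma adjusted p = 1.52e-07). The single probe set cannot separate transgene from endogenous RNA. Array medians were 5.03 to 5.11 in NICD1 samples and 4.93 to 4.99 in controls, and the number of arrays, 3 per group, limits the precision of every value. The tissue label was checked with 10 proximal tubule markers, whose mean level per array was 6.33 to 7.49 in NICD1 samples and 10.96 to 11.05 in controls. All 10 were called lower, with a median difference of -4.61. Markers of later segments moved too: over 18 tubule markers, proximal ones included, 16 were lower, among them Slc12a1 of the thick limb (-2.71), Slc12a3 (-2.38) and Calb1 (-4.15) of the distal tubule and Slc4a1 of intercalated cells (-2.05). The other 2, Umod (0.32) and Scnn1g (1.23), were higher. In whole-kidney RNA, fewer cells of a type and less RNA per cell cannot be told apart, and the part of these markers in the results below was not tested.

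UDP-glucuronosyltransferases (UGTs) transfer glucuronic acid, or another sugar, from a UDP-bound donor to their substrate in the endoplasmic reticulum. Glutathione S-transferases (GSTs) join electrophiles to glutathione, and the products are trimmed to mercapturic acids, a task for which the proximal tubule brush border is well equipped. Cytosolic sulfotransferases (SULTs) move sulfate from the donor PAPS onto phenols, amines and steroids. All 3 families are rich in tandem duplicates, and the proximal tubule is the segment best known for drug conjugation in the kidney.

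Conjugation genes were called lower more often than higher in NICD1 kidneys, and the largest falls were in Ugt genes. Of the 46 genes, 17 fell (37.0%) and 3 rose (6.52%), while 26 did not pass the test (limma, two-sided, Benjamini-Hochberg adjusted p under 0.05 over all 19937 genes). Over all genes, 32.7% were called, 14.9% as lower and 17.8% as higher. By class, 9 of 11 Ugt genes fell (81.8%) and 0 rose. Of 19 Gst genes, 5 fell (26.3%) and 3 rose (15.8%), and of 16 Sult genes, 3 fell (18.8%) and 0 rose. The shares of Gst genes that rose and of Sult genes that fell were thus near those of all genes. At an unadjusted p under 0.05 in the same fit, the higher counts of the Ugt and Sult classes were also 0. At that threshold 3594 of all 19937 genes were lower and 4334 higher.

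The median difference was -2.19 over the Ugt genes, -0.14 over the Gst genes and -0.063 over the Sult genes. It was -0.15 over the 46 together and 0.015 over all genes. With arrays centred on their medians the value for the 46 was -0.26, and without the dimmest 40% of genes, which left 25 of them, it was -0.71. That filter used the mean over all 6 arrays. It kept genes bright in controls alone, such as Ugt2b38, and left out genes dim in both groups, so the -0.71 partly reflects the filter itself. In size, 12 of the 17 falls were at least 2-fold, and 7 of these were in Ugt genes. Of the 3 rises, 1 was at least 2-fold. Over all 19937 genes, 1057 of 2978 falls and 927 of 3551 rises were at least 2-fold. The NICD1 and control arrays did not overlap for 24 of the 46 genes, a share not far above the 43.4% of all genes. Of these 24 genes 20 were lower and 4 higher, whereas of all 19937 genes 3920 were lower and 4731 higher without overlap. On all 6 arrays 20 of the 46 genes lay under the array's median probe set value, and 4 of those 20 were called. Of all 19937 genes, 7807 lay under it on all 6 arrays, and 489 of those 7807 were called.

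**Figure D1:**
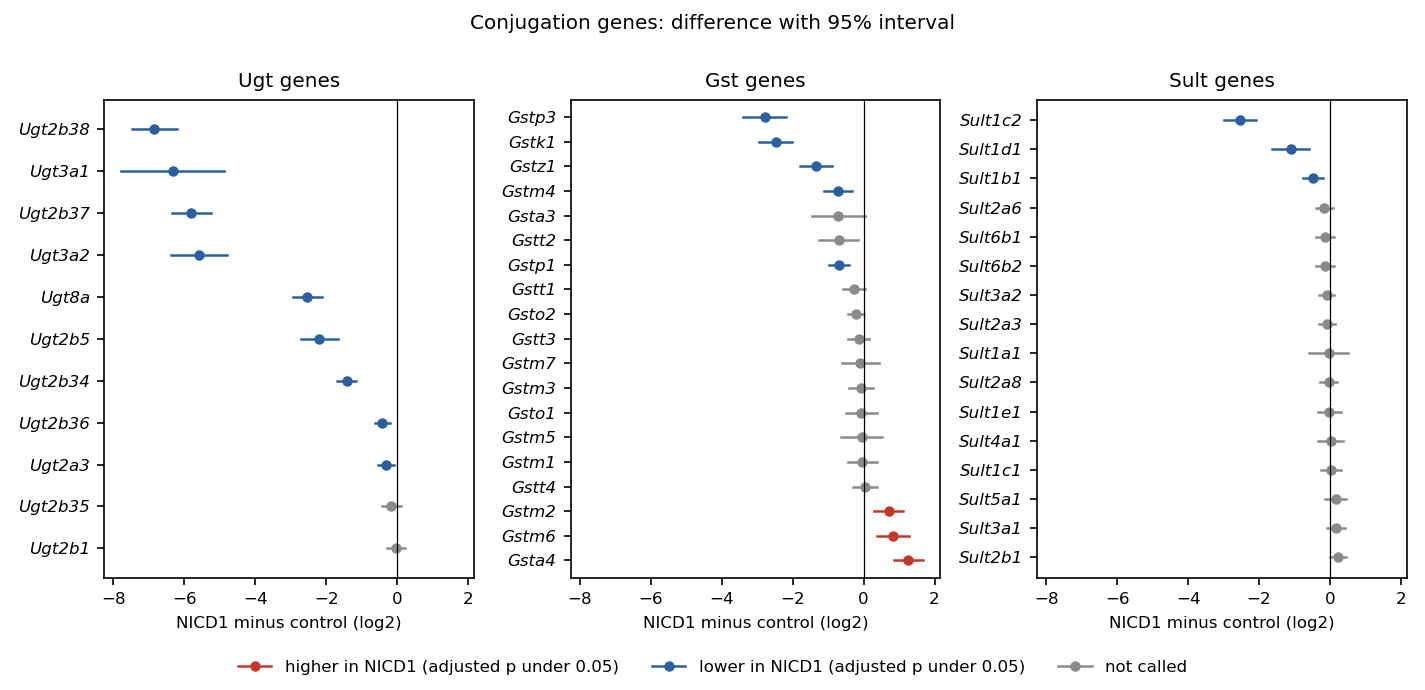
Difference (NICD1 minus control, log2) of each of the 46 conjugation genes, by class, with its 95% interval from the limma fit on 3 arrays per group. Most Ugt genes lie left of 0, with Ugt2b38 at -6.84, whereas the Gst genes spread to both sides and most Sult genes sit close to 0.

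Among the Ugt genes, the 4 largest falls belonged to pairs of relatives, Ugt2b38 with Ugt2b37 and Ugt3a1 with Ugt3a2. Enzymes of the UGT2B group conjugate steroids, bile acids and drugs. Ugt2b38 read 4.96, 3.99 and 5.31 in NICD1 samples, against 11.52, 11.73 and 11.53 in controls. All 3 NICD1 values lay more than 6 log2 units below the lowest control value, and the difference was -6.84 (SE 0.28, 115-fold lower, limma adjusted p = 4.87e-07). Ugt2b37 read 4.52, 4.25 and 4.63 in NICD1 samples, against 10.30, 10.81 and 9.70 in controls, a difference of -5.80 (SE 0.24, 55.9-fold lower, limma adjusted p = 5.39e-07). Again the groups did not overlap. NICD1 values lay under the array median on 3 arrays for Ugt2b37 and on 2 for Ugt2b38, so the sizes of these folds are uncertain. Relatives this close can share probe sequence, so the split of signal between them is uncertain.

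The upstream sequences of Ugt2b38 and Ugt2b37 are shown because these genes on chromosome 5 had the largest falls of the UGT2B group and have nearly the same promoter. Each line is the 250 bases before the annotated start, 5′ to 3′ on the minus strand, from RefSeq on GRCm38.p6, at chr5:87424204-87424453 for Ugt2b38 and chr5:87254789-87255038 for Ugt2b37. Capitals mark the core letters TGGGAA, on either strand, that the Notch partner RBPJ recognises.
Ugt2b38: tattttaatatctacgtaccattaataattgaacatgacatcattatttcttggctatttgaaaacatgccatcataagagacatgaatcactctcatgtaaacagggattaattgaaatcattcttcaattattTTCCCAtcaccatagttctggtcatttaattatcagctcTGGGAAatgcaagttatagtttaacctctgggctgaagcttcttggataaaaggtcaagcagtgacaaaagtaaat
Ugt2b37: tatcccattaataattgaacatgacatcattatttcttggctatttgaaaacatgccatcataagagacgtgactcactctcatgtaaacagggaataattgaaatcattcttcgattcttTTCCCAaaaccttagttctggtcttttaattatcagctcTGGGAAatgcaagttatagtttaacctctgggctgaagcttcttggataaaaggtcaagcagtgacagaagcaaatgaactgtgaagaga
Set against each other at a shift of 14 bases, 222 of 236 overlapping bases were identical (94.1%). The Ugt2b38 window matched that of Ugt2b5 at 59.9%, that of Ugt2b36 at 46.8%, and those of Ugt2a3, Ugt2b1, Ugt2b34 and Ugt2b35 at 33.2% to 36.8%. TGGGAA stood 2 times in each, at -115 to -110 and -76 to -71 in Ugt2b38 and at -129 to -124 and -90 to -85 in Ugt2b37, counted from the start site.

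The letters are common, however: 21.6% of all 32851 RefSeq windows of this length hold TGGGAA on either strand. RefSeq windows, 53 in number, were at hand for 42 of the 46 genes, and 13 of the 53 held TGGGAA. Counts by gene take a gene as holding a motif if any of its windows does, so they are not on the scale of the share of all windows. By gene, TGGGAA stood in 5 of 16 genes called lower (Gstz1, Ugt2b34, Ugt2b37, Ugt2b38 and Ugt3a1), in 2 of 2 called higher (Gstm2 and Gstm6) and in 6 of 24 that were not called. Such a match describes letters in a window and is not a binding site.

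UGT3A enzymes use sugars other than glucuronic acid, as known for the human enzymes. Ugt3a1 read 3.19, 3.55 and 6.23 in NICD1 samples, against 10.64, 10.68 and 10.64 in controls. The third NICD1 sample stood well above the other NICD1 samples but still far below every control. The other 2 NICD1 values lay under the array median, so the size of the fold is uncertain. The difference was -6.33 (SE 0.64, 80.4-fold lower, limma adjusted p = 6.60e-05), and without the third NICD1 sample it was -7.28 (adjusted p = 3.78e-08). Ugt3a2 read 4.62, 5.67 and 6.38 in NICD1 samples, against 11.10, 11.13 and 11.22 in controls, a difference of -5.59 (SE 0.35, 48.2-fold lower, limma adjusted p = 4.23e-06). A further probe set annotated to both genes read 4.88, 5.70 and 7.40 in NICD1 samples, against 11.40, 11.62 and 11.45 in controls, with the third NICD1 sample again the highest of its group.

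The window before Ugt3a1 is given with that of Sult1d1, a sulfotransferase gene on chromosome 5 described further on, because both hold a match to the site of HNF1, a tubule transcription factor. The site was searched as GTTAAT, any base, then ATTAAC, on both strands with up to 2 mismatches, and capitals mark the match. Both sequences are the 250 bases before the start in RefSeq on GRCm38.p6, at chr15:9279579-9279828 on the plus strand and chr5:87569007-87569256 on the minus strand.
Ugt3a1: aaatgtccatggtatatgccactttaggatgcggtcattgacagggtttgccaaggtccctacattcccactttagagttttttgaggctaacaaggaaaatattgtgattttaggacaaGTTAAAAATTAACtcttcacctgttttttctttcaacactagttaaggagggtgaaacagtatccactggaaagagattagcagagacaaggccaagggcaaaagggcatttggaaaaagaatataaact
Sult1d1: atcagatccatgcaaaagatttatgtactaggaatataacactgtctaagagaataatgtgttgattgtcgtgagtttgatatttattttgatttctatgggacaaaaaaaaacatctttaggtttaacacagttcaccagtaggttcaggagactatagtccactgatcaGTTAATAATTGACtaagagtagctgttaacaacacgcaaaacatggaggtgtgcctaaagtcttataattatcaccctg
The match had 1 mismatch in each, at -130 to -118 in Ugt3a1 and at -79 to -67 in Sult1d1. Ugt2a3 held the only other match among these genes, with 2 mismatches, at -54 to -42. HNF1 matches thus stood in 3 of 16 genes called lower, 0 of 2 called higher and 0 of 24 not called, and in 1.24% of all windows. The HNF4 letters CAAAGTCCA with up to 1 mismatch stood in 7.05% of all windows, in 1 of 16 genes called lower (Gstz1), in 0 of 2 called higher and in 3 of 24 not called (Sult1a1, Sult1e1 and Sult2b1). The antioxidant response element TGACNNNGC of NRF2 stood in 10.2% of all windows, in 0 of 16 called lower, 0 of 2 called higher and 3 of 24 not called (Gsta3, Gstm5 and Gstm7). Counted by window, as the shares of all windows are, 3 of the 53 windows of these genes held an HNF1 match. HNF4 matches stood in 4 of the 53 and the antioxidant response element in 3. Matches of different motifs did not overlap in these windows.

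Outside those pairs, Ugt8a and Ugt2b5 had the next largest falls of the Ugt class. Ugt8a makes galactosylceramide, the precursor of the sulfatides of the kidney, from ceramide and UDP-galactose. It read 6.83, 6.79 and 7.34 in NICD1 samples, against 9.34, 9.83 and 9.38 in controls, a difference of -2.53 (SE 0.18, 5.79-fold lower, limma adjusted p = 8.22e-06). Ugt2b5 read 4.90, 5.97 and 5.58 in NICD1 samples, against 7.76, 7.75 and 7.51 in controls, a difference of -2.19 (SE 0.23, 4.57-fold lower, limma adjusted p = 8.60e-05). In both genes every NICD1 sample was below every control.

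The UGT2 genes lie side by side on chromosome 5 in the order Ugt2b34, Ugt2b1, Ugt2b35, Ugt2b36, Ugt2b5, Ugt2b37, Ugt2a3, Ugt2b38, Ugt2a1 and Ugt2a2, followed by Sult1b1, Sult1d1 and Sult1e1. Along this order genes with large differences stood next to genes with small ones. Ugt2b34, at the near end, read 3.73, 3.39 and 3.38 in NICD1 samples, against 4.87, 4.94 and 4.94 in controls, a difference of -1.42 (2.67-fold lower, limma adjusted p = 2.11e-05). Ugt2b36 (difference -0.42, adjusted p = 0.00766) and Ugt2a3 (difference -0.32, adjusted p = 0.0427) also fell, both at levels under the array median on all 6 arrays. Ugt2b35 (-0.16, adjusted p = 0.378) and Ugt2b1 (-0.03, adjusted p = 0.870) did not pass the test, and they too lay under the median on all 6 arrays.

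Ugt2a3 sits between Ugt2b37 and Ugt2b38 in that order, and its call was the least stable of the class. It was lost without any single NICD1 sample and without control 2 or 3, with differences of -0.33 to -0.27. The probe set shared by Ugt2a1 and Ugt2a2 differed by -0.016 (adjusted p = 0.942). In all, 6 of 8 UGT2 genes fell, with a median difference of -0.92.

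**Figure D2:**
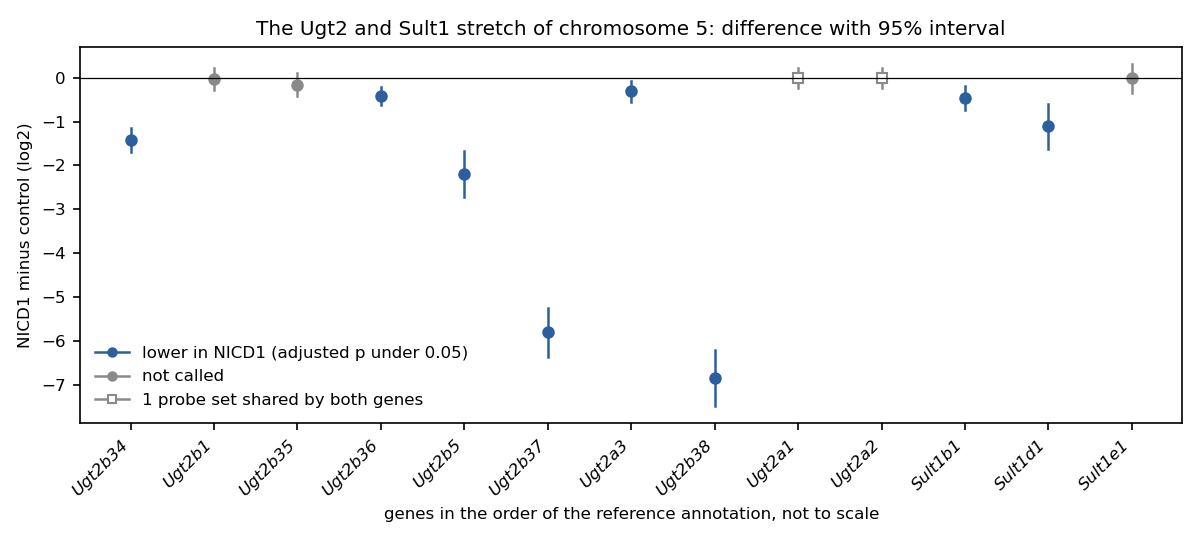
Difference (NICD1 minus control, log2, with 95% interval) of the UGT2 and SULT1 genes in their order along chromosome 5, spaced evenly rather than by distance. Ugt2b37 at -5.80 and Ugt2b38 at -6.84 stand apart from the genes next to them, and open squares mark the probe set shared by Ugt2a1 and Ugt2a2.

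The UGT1A enzymes, among them the enzyme that conjugates bilirubin, come from a single locus whose variants share their last exons, and 1 probe set covers 8 of them together. It read 8.35, 8.35 and 8.25 in NICD1 samples, against 9.09, 9.10 and 9.19 in controls. The groups did not overlap, and the difference was -0.81 (SE 0.095, adjusted p = 0.000270 in the fit of all probe sets). Which of the 8 variants changed cannot be read from it.

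Gst genes moved in both directions. Gstk1, Gstp3, Gstz1, Gstm4 and Gstp1 fell, Gsta4, Gstm6 and Gstm2 rose, and 11 of 19 did not pass the test. Gstp3, a pi-class gene, read 3.62, 3.76 and 3.73 in NICD1 samples, against 5.77, 6.64 and 7.05 in controls, a difference of -2.78 (SE 0.27, 6.88-fold lower, limma adjusted p = 4.80e-05). Its NICD1 values lay close together, under every control and under the array median, so the size of this fold is uncertain. Gstk1, the kappa-class enzyme of mitochondria and peroxisomes, read 6.26, 7.17 and 6.54 in NICD1 samples, against 9.14, 9.07 and 9.19 in controls, a difference of -2.48 (SE 0.20, 5.57-fold lower, limma adjusted p = 1.74e-05). Gstz1 is the maleylacetoacetate isomerase of tyrosine breakdown. It read 7.43, 8.32 and 7.84 in NICD1 samples, against 9.05, 9.20 and 9.35 in controls, a difference of -1.33 (SE 0.20, 2.52-fold lower, limma adjusted p = 0.000725), with no overlap.

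The other falls of the class were smaller. Gstp1 read 8.32, 8.62 and 8.48 in NICD1 samples, against 9.11, 9.34 and 9.07 in controls, a difference of -0.70 (1.62-fold lower, adjusted p = 0.00174). Both probe sets shared by Gstp1 and its near-identical neighbour Gstp2 were also lower, by differences of -0.46 (adjusted p = 0.0144) and -0.56 (adjusted p = 0.00211). Gstm4 read 6.10, 5.92 and 5.97 in NICD1 samples, against 6.29, 6.91 and 6.94 in controls, a difference of -0.72 (1.65-fold lower, adjusted p = 0.00966), and it was the only mu-class gene called lower. Control 1 lay close to the NICD1 samples for Gstm4, though above them.

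The 3 rises were in the alpha and mu classes. Gsta4, an enzyme with high activity toward the lipid peroxidation product 4-hydroxynonenal, read 9.28, 9.09 and 8.48 in NICD1 samples, against 7.71, 7.57 and 7.77 in controls. Every NICD1 sample exceeded every control, and the difference was 1.27 (SE 0.19, 2.40-fold higher, limma adjusted p = 0.000658). Gstm6 read 3.61, 4.54 and 4.02 in NICD1 samples, against 3.15, 3.35 and 3.18 in controls, a difference of 0.83 (1.78-fold higher, adjusted p = 0.0114), under the array median on all 6 arrays. Gstm2 read 7.11, 6.85 and 6.38 in NICD1 samples, against 6.29, 5.96 and 5.96 in controls, a difference of 0.71 (1.63-fold higher, adjusted p = 0.0149). The lowest NICD1 value of Gstm2 was only just above the highest control. Its call was lost without control 2 (adjusted p = 0.0583) or control 3 (adjusted p = 0.0578), with a difference of 0.65 in each case.

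The mu-class genes stand together on chromosome 3 in the order Gstm5, Gstm7, Gstm6, Gstm3, Gstm2, Gstm1 and Gstm4, so called and uncalled genes were interleaved there. Gstm1 read 9.02, 9.75 and 9.19 in NICD1 samples, against 9.41, 9.51 and 9.14 in controls. The groups overlapped throughout, with a difference of -0.03 and a 95% interval of -0.45 to 0.39 (adjusted p = 0.928). The differences of Gstm3, Gstm5 and Gstm7 lay between -0.09 and -0.06 and did not pass the test. A second, dimmer probe set of Gstm3 differed by -0.32 without overlap (adjusted p = 0.118 in the fit of all probe sets), and the mean of both Gstm3 probe sets by -0.19 (adjusted p = 0.338). Their relatives are close enough in sequence that cross-hybridisation within the class was not separated here.

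Among the theta-class genes of chromosome 10, 0 of 4 were called by limma, with 1 at an unadjusted p under 0.05. That gene was Gstt2, which read 7.93, 8.68 and 8.37 in NICD1 samples, against 8.52, 9.21 and 9.36 in controls (difference -0.70, 95% interval -1.25 to -0.15, adjusted p = 0.0528). Control 1 fell within the NICD1 range, and without it the gene was called lower, at -0.96. It was also called lower without NICD1 sample 2, at -0.88. Gstt1 (-0.27) and Gstt3 (-0.14) did not pass the test.

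Gsta3 depended on a single array. It read 7.71, 6.90 and 6.08 in NICD1 samples, against 7.39, 7.71 and 7.72 in controls, a difference of -0.71 (adjusted p = 0.146), and without NICD1 sample 1 the difference was -1.12 (adjusted p = 0.00500). Gsto1, an omega-class enzyme that can reduce dehydroascorbate, read 6.03, 6.10 and 5.62 in NICD1 samples, against 6.34, 5.61 and 5.98 in controls. Its groups overlapped, with a difference of -0.06 and a 95% interval of -0.50 to 0.38 (adjusted p = 0.869). Gsto2 differed by -0.21 without overlap (adjusted p = 0.170).

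**Figure D3:**
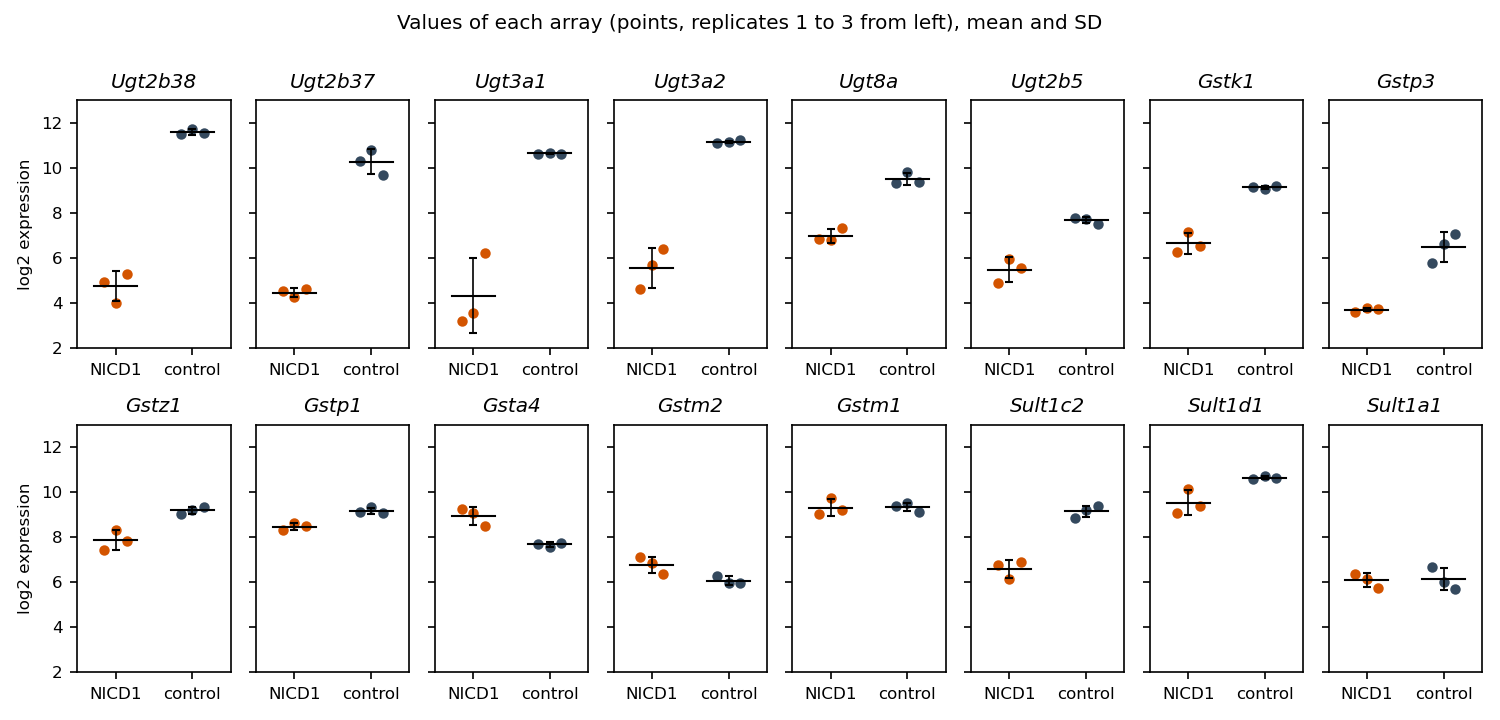
Log2 expression on each array for 16 conjugation genes, with NICD1 samples on the left of each panel and controls on the right, replicates 1 to 3 from left to right, and the group mean and SD (n = 3). The groups lie far apart for Ugt2b38, Ugt2b37, Ugt3a1 and Ugt3a2, Gsta4 and Gstm2 are higher in NICD1 samples, and Gstm1 and Sult1a1 overlap.

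Sult genes were mostly dim and mostly not called: 13 of 16 lay under the array median on all 6 arrays, and Sult1b1 was the only one of those 13 to be called. All 3 falls were in the SULT1 group. Sult1c2 read 6.76, 6.16 and 6.92 in NICD1 samples, against 8.87, 9.19 and 9.39 in controls, a difference of -2.54 (SE 0.20, 5.81-fold lower, limma adjusted p = 1.59e-05), with no overlap. Sult1d1, which sulfates dopamine and other catecholamines in mice, read 9.08, 10.14 and 9.41 in NICD1 samples, against 10.58, 10.73 and 10.65 in controls, a difference of -1.11 (SE 0.23, 2.16-fold lower, limma adjusted p = 0.00443). The second NICD1 sample came nearest to the controls. Sult1b1, a sulfotransferase of thyroid hormones, read 2.79, 2.67 and 2.46 in NICD1 samples, against 2.98, 3.22 and 3.15 in controls (difference -0.47, adjusted p = 0.0136), and its call was lost without control 2, at -0.42 (adjusted p = 0.0616).

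Sult1a1, the main phenol sulfotransferase, read 6.36, 6.17 and 5.74 in NICD1 samples, against 6.67, 6.02 and 5.71 in controls. Its groups overlapped fully, with a difference of -0.04 and a 95% interval of -0.58 to 0.50 (adjusted p = 0.937). The remaining 12 Sult genes differed by -0.16 to 0.22, all with adjusted p above the threshold. Sult2b1, which sulfates cholesterol, read 4.11, 4.09 and 4.24 in NICD1 samples, against 4.01, 3.86 and 3.91 in controls (difference 0.22, adjusted p = 0.134), without overlap. Sult4a1, a brain-enriched family member, read 3.45, 3.67 and 3.98 in NICD1 samples, against 3.90, 3.65 and 3.50 in controls. Its groups overlapped, with a difference of 0.01 (adjusted p = 0.963).

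Sult5a1 read 3.82, 3.71 and 4.14 in NICD1 samples, against 3.79, 3.74 and 3.67 in controls (difference 0.16, adjusted p = 0.436). Sult6b2 read 2.65, 2.72 and 2.91 in NICD1 samples, against 2.81, 2.999 and 2.89 in controls (difference -0.14, adjusted p = 0.415). Sult3a1 differed by 0.18 (adjusted p = 0.302). A missed threshold does not show that these genes were unchanged.

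The NICD1 arrays did not rank alike in every class. Among the 9 Ugt genes called lower, the highest NICD1 value came from sample 3 in 6 genes, from sample 2 in 2 and from sample 1 in 1. Among the 5 Gst genes called lower, it came from sample 2 in 4 and from sample 1 in 1, and the lowest came from sample 1 in 4. Of the 10 proximal tubule markers, 8 were highest in sample 3, 2 in sample 2, and all 10 were lowest in sample 1. These counts describe 3 arrays and were not tested.

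Genes that feed the conjugation reactions were counted from lists of pathway members. The shares to set beside these and the later lists are those of all genes, 14.9% called lower and 17.8% called higher. Counts at an unadjusted p under 0.05 in the limma fit are to be set beside 3594 lower and 4334 higher of all 19937 genes. Of 8 genes for UDP-glucuronic acid supply and glucuronide cleavage, 5 fell and 0 rose in NICD1 kidneys, with a median difference of -0.62, and at an unadjusted p under 0.05 in the limma fit 6 were lower and 0 higher. Ugp2, which makes UDP-glucose, averaged 7.04 ± 0.06 in NICD1 samples and 8.16 ± 0.32 in controls (SD, n = 3 each), a difference of -1.12 (limma adjusted p = 0.000399). Ugdh, which oxidises UDP-glucose to UDP-glucuronic acid, averaged 8.26 ± 0.13 in NICD1 samples and 9.24 ± 0.25 in controls (SD, n = 3 each), a difference of -0.98 (limma adjusted p = 0.000529). The nucleotide sugar transporters Slc35d2 (-0.65) and Slc35a3 (-0.76) fell as well.

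Of 27 measured genes of glutathione synthesis, recycling, export and breakdown, 13 fell (48.1%), 6 rose (22.2%) and 8 did not pass the test, with a median difference of -0.26. The share that rose was near the 17.8% of all genes. The largest falls were in enzymes that turn glutathione conjugates into mercapturic acids and back, though not every gene of that path fell. The gamma-glutamyltransferase genes Ggt5 (-0.03, limma adjusted p = 0.867) and Ggt7 (0.27, limma adjusted p = 0.122) did not pass the test. Ggt1 was listed but is not among the measured genes. Dpep1, the brush border dipeptidase that cleaves the cysteinylglycine conjugate, averaged 4.10 ± 0.26 in NICD1 samples and 7.84 ± 0.27 in controls (SD, n = 3 each), a difference of -3.74 (limma adjusted p = 7.84e-07). Nat8, which acetylates cysteine conjugates, read 4.69, 5.47 and 5.97 in NICD1 samples, against 9.27, 9.24 and 9.24 in controls, a difference of -3.87 (limma adjusted p = 6.11e-06). Anpep (-3.24), a brush border aminopeptidase, and the deacetylases Acy1 (-3.81) and Acy3 (-3.75) fell by similar sizes. Among the synthesis genes, Gclm (-1.35), the modifier subunit of glutamate-cysteine ligase, and Gss (-0.96), glutathione synthetase, fell.

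The rises in that list included genes of uptake and export and membrane-bound enzymes. Slc7a11, the cystine-glutamate exchanger, averaged 6.00 ± 0.49 in NICD1 samples and 3.36 ± 0.04 in controls (SD, n = 3 each), a difference of 2.64 (limma adjusted p = 1.48e-05). The exporters Abcc1 (1.12) and Abcc4 (0.90), the microsomal transferase Mgst1 (1.80) and the prostaglandin E synthase Ptges (1.83) also rose. Within the microsomal family Mgst3 went the other way, at -0.96. The exporter Abcc2, found in the apical membrane, fell by 1.35 on the log2 scale.

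Of 11 measured genes of sulfate supply and removal, 7 fell and 0 rose, with a median difference of -0.89, and at an unadjusted p under 0.05 in the limma fit 8 were lower and 0 higher. Papss2, which makes the donor PAPS, read 7.15, 8.63 and 8.29 in NICD1 samples, against 10.10, 10.22 and 10.39 in controls, a difference of -2.22 (limma adjusted p = 0.000525). The sulfate transporter Slc13a1 read 5.30, 5.58 and 8.46 in NICD1 samples, against 10.28, 10.88 and 10.78 in controls, a difference of -4.20 (limma adjusted p = 0.00121). As with Ugt3a1, sample 3 was well above the other NICD1 samples. Slc26a1 (-2.84), a sulfate transporter, Suox (-2.50), sulfite oxidase, and Bpnt1 (-1.54), which removes the spent donor, fell too.

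Conjugation enzymes of other families fell in 11 of 16 measured genes, with 1 rise and a median difference of -1.51. Inmt, an N-methyltransferase, averaged 5.29 ± 0.51 in NICD1 samples and 11.67 ± 0.33 in controls (SD, n = 3 each), a difference of -6.37 (limma adjusted p = 3.71e-07). Glyat (-2.78), which joins glycine to acyl groups, and Acsm5 (-2.82), an acyl-CoA synthetase, fell. Ephx1, microsomal epoxide hydrolase, was the gene that rose, averaging 9.16 ± 0.25 in NICD1 samples and 7.13 ± 0.02 in controls (SD, n = 3 each), a difference of 2.03 (limma adjusted p = 4.96e-06).

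**Figure D4:**
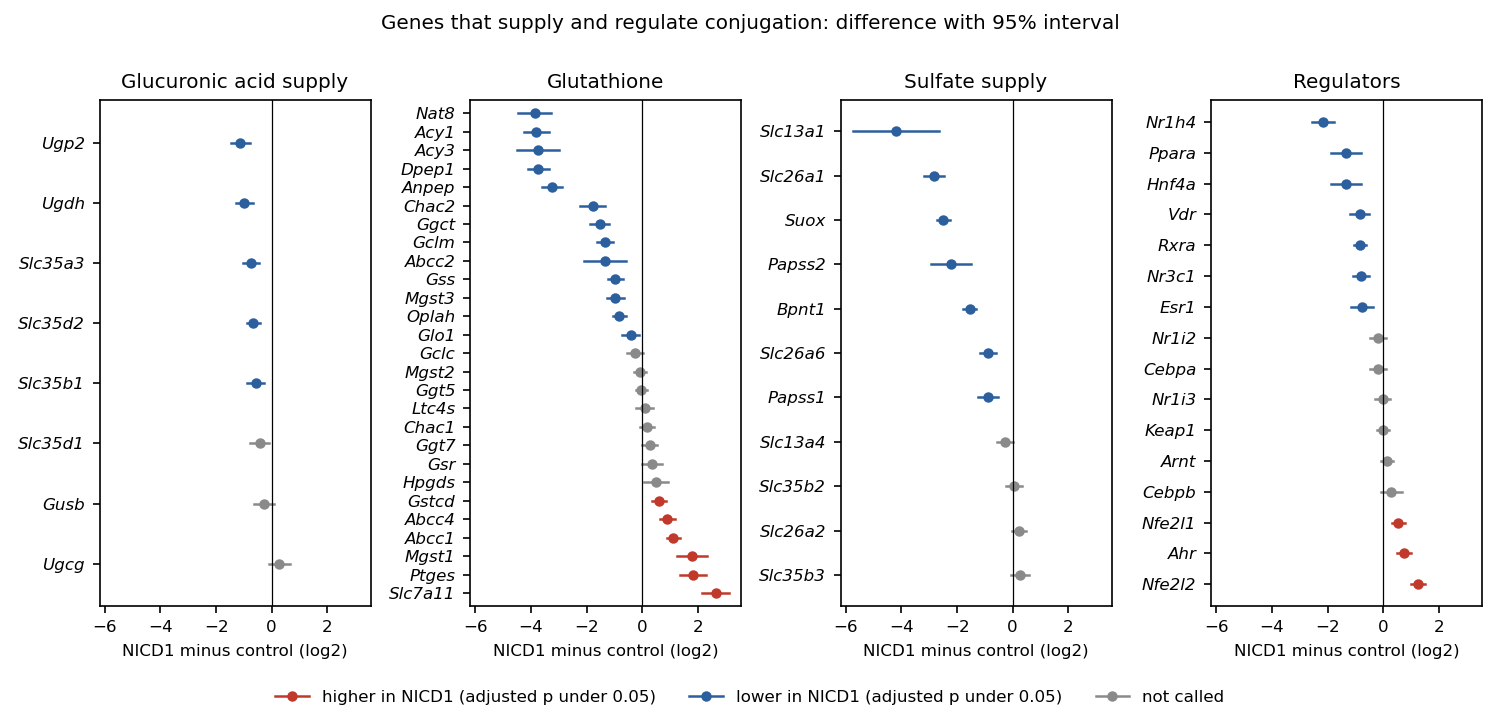
Difference (NICD1 minus control, log2, with 95% interval) of genes for glucuronic acid supply, glutathione handling, sulfate supply and regulation of conjugation genes, in 4 panels. Called genes of the sulfate panel all lie left of 0, whereas the glutathione panel spans Nat8 at -3.87 and Slc7a11 at 2.64.

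Of 16 measured regulators of conjugation genes, 7 fell (43.8%), 3 rose (18.8%) and 6 did not pass the test. The share that rose was close to the 17.8% of all genes. Nr1h4, the bile acid receptor FXR, averaged 6.65 ± 0.26 in NICD1 samples and 8.82 ± 0.27 in controls (SD, n = 3 each), a difference of -2.16 (limma adjusted p = 1.36e-05). Hnf4a (-1.33), Ppara (-1.35) and Rxra (-0.83), nuclear receptors of proximal tubule and fatty acid metabolism genes, fell. Nfe2l2, which encodes NRF2, averaged 9.38 ± 0.10 in NICD1 samples and 8.14 ± 0.11 in controls (SD, n = 3 each), a difference of 1.25 (limma adjusted p = 2.33e-05), and the aryl hydrocarbon receptor gene Ahr rose by 0.76. Keap1, which encodes the protein that holds NRF2 in check, differed by -0.01 (adjusted p = 0.967).

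Other known NRF2 target genes were called in both directions, with 5 of 14 higher (35.7%) and 4 lower (28.6%) and a median difference of 0.15. Without any single array other than NICD1 sample 3, 3 were higher, and without that sample 6. This list shares Slc7a11, Gclm, Gclc, Gsr, Abcc4 and Ugdh with the lists above. Nqo1, a widely used NRF2 readout, read 6.44, 7.81 and 6.38 in NICD1 samples, against 6.50, 7.05 and 7.10 in controls. Its groups overlapped, with a difference of -0.01 and a 95% interval of -0.79 to 0.77 (adjusted p = 0.987).

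Several mouse conjugation genes differ between male and female kidneys, and sex is not given in the labels, so sex-linked genes were read beside them. Xist lay between 2.86 and 3.11 in NICD1 samples and between 2.72 and 2.89 in controls, under the array median on all 6 arrays. Y-linked Uty lay between 7.38 and 7.62 in NICD1 samples and between 7.28 and 7.51 in controls. Uty, Eif2s3y and Kdm5d, all Y-linked, were under the array median on 0 of 6 arrays. Every array of both groups thus showed low Xist beside Y-linked RNA, the pattern of male kidneys. By limma, 0 of 4 measured sex-linked genes were called, with 1 higher at an unadjusted p under 0.05 (Kdm5d, difference 0.33, adjusted p = 0.0560). Without NICD1 sample 3, 1 was called higher, and without NICD1 sample 1, 1 was called lower. All 10 genes of a male-biased kidney list fell, with a median difference of -4.36. Their part in the falls of the Ugt genes was not tested.

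Markers of other cells moved as well: 4 of 5 macrophage markers, 3 of 4 fibroblast markers and 2 of 3 lymphocyte markers were higher in NICD1 kidneys, and 2 of 4 endothelial markers were lower. Lyz2, a macrophage lysozyme, averaged 9.20 ± 0.61 in NICD1 samples and 5.26 ± 0.51 in controls (SD, n = 3 each). Of 4 measured liver markers 1, Ttr, was lower, with overlapping groups. By limma 0 of 6 adrenal and 0 of 4 fat markers were called, with 1 adrenal and 0 fat markers at an unadjusted p under 0.05. The part of these cells in the differences of the conjugation genes was not tested.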

How the data were processed

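RNA of 6 whole mouse kidney samples was measured on Affymetrix arrays. The values the authors deposited are log2 expression per probe set, normalized with the RMA16 algorithm in GeneSpring per the labels' protocols (software version not given in the sources used here). RMA can compress differences of dim genes. Of 34760 probe sets, 6573 numbered in the control range were left out. Of the remaining 28187, 21640 had 1 gene symbol in the platform annotation, 1321 had several and 5226 had none. The brightest single-symbol probe set per gene gave 19937 genes. All 46 conjugation genes matched RefSeq by Entrez identifier; 2 of 65 RefSeq protein-coding genes of these families had no probe set here. Only gene order and promoter windows carry coordinates (GRCm38.p6), taken from RefSeq and not from the array.

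The difference between NICD1 and control arrays was tested with limma, version 3.58.1, under R 4.3.3 (lmFit and eBayes, two-sided, Benjamini-Hochberg over 19937 genes, adjusted p threshold 0.05). Probe sets with several symbols were tested in a fit of all 28187. Promoters were searched with Python 3.11.15. On simulated arrays of 19937 genes with known NICD1 minus control changes, the fit called 20.9% of 67 genes shifted by 0.5 log2, 83.6% of 67 shifted by 1 and 100% of 66 shifted by 2, with 3 false calls. Only those genes changed there, with noise independent between genes, whereas 32.7% of all genes were called in the real data. The simulated shares therefore do not give the sensitivity or error of the real fit.

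Conjugation genes and lists were chosen with earlier results of these data known. Any conjugation gene could be named. Values on all arrays were given for the largest called, non-overlapping changes of each class, the brightest gene of each subfamily and called genes opposite to their subfamily, and for further genes that a sentence turns on. List genes named were those with the lowest p, at most 4 per list. Others were added after their values were seen, namely Acy3, Ggt5, Ggt7, Gclm, Gss, Abcc1, Abcc2, Abcc4, Mgst1, Mgst3, Ptges, Papss2, Slc13a1, Hnf4a, Ppara, Keap1, Nqo1, Kdm5d, Ttr, Lyz2 and the tubule markers. Alternatives were the mean over probe sets, quantile normalization, median centring, leaving out the dimmest 40%, a trended robust variance, array weights, all probe sets fitted together, an adjusted p under 0.01, a 2-fold minimum, a block for the replicate number, and each array left out in turn. Scan dates and batches were not analysed here.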

Additional observations from a re-analysis of the deposited data

Results flagged for a closer look

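Several probe sets named for more than 1 gene were not part of the counts, and those that were above every control on every NICD1 array are given here. One probe set annotated to Gsta1, Gsta2, Gm3776 and Gm10639 read 5.49, 6.05 and 5.12 in NICD1 samples, against 2.27, 4.71 and 2.04 in controls, a difference of 2.55 (SE 0.62, limma adjusted p = 0.0141 over all probe sets). Control 2 stood well above the other controls. A second probe set of the same 4 genes read 3.91, 4.13 and 3.84 in NICD1 samples, against 3.56, 3.47 and 3.80 in controls, a difference of 0.35 that did not pass the test (adjusted p = 0.0721). The last of their probe sets, with overlapping groups, differed by -0.19 (adjusted p = 0.591). Gsta1 and Gsta2 encode alpha-class transferases, and these genes lie near Gsta4 on chromosome 9. Which of the 4 genes gave the signal cannot be read from shared probe sets.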

How the results depend on the processing

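Of the 20 called genes, 16 kept their call in each alternative in which they were fitted other than the 2-fold minimum, and 9 kept it in all 16; Ugt2b34 and Ugt2b36, among the 16 genes, were not fitted without the dimmest 40%. Higher genes numbered 3, against 1 at an adjusted p under 0.01, 0 with the 2-fold minimum and 2 to 3 when single arrays were left out. Lower genes numbered 17, against 9 with the 2-fold minimum and 15 to 18 when single arrays were left out. The median difference of -0.15 became -0.26 after centring arrays on their medians and ran from -0.22 to -0.14 when single arrays were left out. Without the dimmest 40%, which left 25 of the 46 genes, it was -0.71. Dim genes were chosen by the mean over all 6 arrays, which keeps genes bright in controls alone, so that value partly reflects the filter. Centring put the median of all genes at -0.091, against 0.015 as deposited. Ugt2a3 lost its call in 9 of the 15 settings that kept it, Gstm2, Sult1b1 and Gstm6 at an adjusted p under 0.01, and the cause was not tested. Gstt2 was called lower after centring (-0.81), with array weights (-0.66) and without the dimmest 40%, Gsto2 after centring (-0.31) and Gsta3 with array weights (-0.75). Deviations of same-numbered samples correlated at -0.069, -0.012 and -0.070, and those of unlike-numbered samples at -0.013 to 0.072. No pairing by number was seen, but 3 arrays per group cannot exclude one. With the replicate block, 17 genes were lower and 3 higher, Ugt2a3 losing and Gstt2 gaining its call. Every sign change was in a gene that was not called. With quantile normalization these were Gstm1 (0.17), Gstm5 (0.10), Sult1e1 (0.018) and Sult4a1 (-0.0023), and after centring Gstt4 (-0.065), Sult1c1 (-0.073) and Sult4a1 (-0.091). With array weights they were Gstm1 (0.11), Gstm3 (0.047), Gstm5 (0.040), Gstm7 (0.12), Gsto1 (0.10), Sult1a1 (0.076), Sult1e1 (0.10) and Ugt2b1 (0.018). Leaving out single arrays, Gstm1 ran from -0.25 to 0.12, Gstm3 from -0.22 to 0.059, Gstm5 from -0.24 to 0.29, Gstm7 from -0.38 to 0.14, Gsto1 from -0.24 to 0.12, Gstt4 from -0.076 to 0.21, Sult1a1 from -0.25 to 0.23, Sult1c1 from -0.099 to 0.11, Sult1e1 from -0.18 to 0.11, Sult2a8 from -0.12 to 0.031, Sult4a1 from -0.12 to 0.14 and Ugt2b1 from -0.099 to 0.059. In the Sult class 13 of 16 genes lay under the array median on all 6 arrays.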
